A study of Drosophila melanogaster with 8 samples.

Results

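Transcripts of translation initiation factors were read from 8 Affymetrix arrays of S2 cells, an embryonic line of Drosophila melanogaster that resembles blood cells. The genes were taken by name, not by any measured value: every probe set whose platform annotation gives exactly 1 gene with a symbol beginning eIF. This gave 44 probe sets of 40 genes, of 18769 probe sets and 11982 genes in the whole table, and each gene was represented by its probe set with the highest mean intensity. All 40 symbols were matched by gene identifier to RefSeq (Release 6 plus ISO1 MT) and none was renamed. The genes eIF1A, eIF2alpha, eIF2gamma and eIF4H1, which RefSeq lists with the same prefix, were not analysed here, nor were 2 probe sets whose annotation names eIF4E7 together with another gene.

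The arrays fall into 4 groups of 2. Every culture had first been transfected with double-stranded RNA (dsRNA), directed at dSTING in the RNAi groups and non-specific in the controls, so the controls carry a dsRNA as well. After 3 days the cells received either a 90-mer double-stranded DNA (dsDNA) or a transfection without it (mock), and they were lysed 24 hours later. The groups are dSTING RNAi dsDNA, control dsDNA, dSTING RNAi mock and control mock, as the titles and source names give them; in 4 samples the genotype tag follows the DNA treatment instead. A knockdown by dsRNA can leave some transcript. The intensity of Sting was 5.33 and 8.05 in dSTING RNAi dsDNA cells and 53.1 and 51.6 in control dsDNA cells. In dSTING RNAi mock cells it was 3.45 and 6.33, and in control mock cells 50.9 and 48.7. The RNAi values lie around an intensity of 7, the level of detection used below. Remaining transcript and background signal cannot be told apart there. The 4 RNAi arrays lay under all 4 controls, as the titles say.

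Initiation brings a ribosome to the start codon of a messenger RNA. The factor eIF2 delivers the initiator transfer RNA to the small ribosomal subunit, which eIF3 and the small factors eIF1 and eIF5 help to prepare, while eIF4E binds the messenger's cap and, with the scaffold eIF4G and the helicase eIF4A, recruits that subunit. After the start codon is found, eIF5 triggers GTP hydrolysis on eIF2, eIF5B joins the large subunit, and eIF2B recharges eIF2 with GTP. Kinases that phosphorylate eIF2 under stress or infection turn it into an inhibitor of eIF2B. That control acts on the protein, which these arrays do not measure.

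Values are intensities on a linear scale with a floor of 1, and changes are differences of log2(intensity + 1), which understate the change of dim genes. A gene is called detected below where its mean log2 level over the 8 arrays was above 3, an intensity of about 7. By that level 4189 probe sets of the whole table were detected. Of 10 blood cell markers 6 were detected (srp, crq, NimC1, Col4a1, vkg and ush), while Hml, Pxn, He and eater were not. Of 8 measured markers of other cells, which include vas, also on the list of partner genes below, 0 were detected, and elav was the highest at 4.18 to 6.78. A first principal component of the detected probe sets held 52.1% of the variance and placed dSTING RNAi dsDNA array 2 at -12.5 and control mock array 2 at 12.2, away from the other 6 (-3.05 to 5.55). In bulk cultures fewer cells of a type and less RNA per cell cannot be told apart.

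Of the 40 initiation factor genes 30 were detected, with single values from 12.0 to 1142. They were eIF1, eIF2beta, eIF2A, eIF2D and eIF5 around the start codon, all 5 subunits of eIF2B, 13 of the 16 eIF3 genes, eIF4A, eIF4B, eIF4E1, eIF4G1 and eIF4G2 at the cap, and eIF5B and eIF6. The 10 others were eIF3d2, eIF3f2, eIF3g2, eIF4E3, eIF4E4, eIF4E5, eIF4E6, eIF4E7, eIF4EHP and eIF4H2. In each case where eIF3 has a pair of genes for a subunit, the first (eIF3d1, eIF3f1, eIF3g1) was detected and the other was not. In the eIF4E family only eIF4E1 was detected. The level splits the genes by a wide gap, with eIF4EHP just under it at 2.38 and eIF4B just over it at 3.87.

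**Figure D1:**
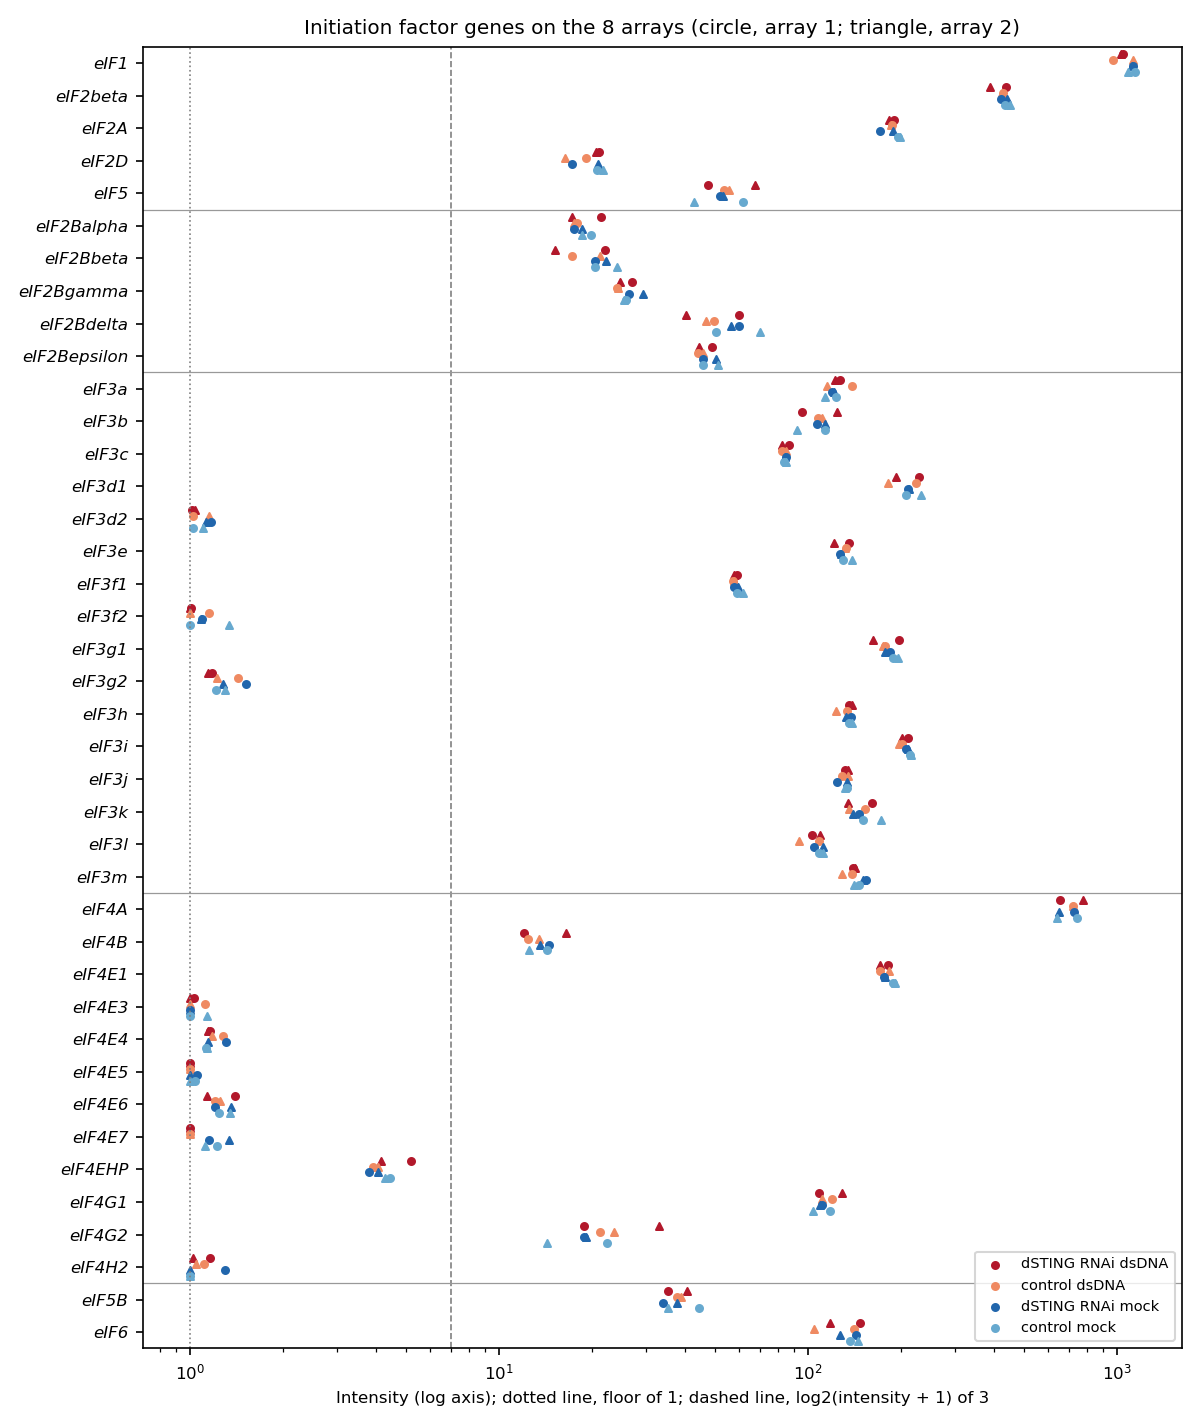
Intensity (log axis) of each of the 40 genes, by role from the start codon factors at the top to eIF5B and eIF6 at the bottom, with 1 point per array and 1 colour per group. The 30 detected genes lie right of the dashed line with their 8 points close together, and 9 of the other 10 lie near the floor, at most 1.51.

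Levels of most detected genes varied little over the 8 arrays. The highest value of a gene was 1.06 to 2.31 times its lowest, with a median of 1.22, against a median of 1.32 over all detected probe sets. For 26 of the 30 genes (86.7%) this ratio was under 1.5, and for 79.4% of all detected probe sets. The 4 exceptions were eIF4G2 (2.31), eIF2Bdelta (1.73), eIF2Bbeta (1.59) and eIF5 (1.58). In those 4 genes the highest and the lowest value fell in dSTING RNAi dsDNA array 2 and control mock array 2, the same arrays that stood apart on the first component.

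With dSTING RNAi, initiation factor transcripts stayed near their control levels in dsDNA-treated cells, the comparison that the series names as its aim. limma called 0 of the 40 genes at an adjusted p of 0.05, and 0 also had an unadjusted p under 0.05. Over all 18769 probe sets 0% were called and 4.51% had an unadjusted p under 0.05. Counts without the 2 arrays that stood apart follow below. Sting itself, at -2.82 (SE 0.27), had a limma adjusted p of 0.901 and was not called. The adjusted test thus missed even so large a change, and 0 called does not show that a gene was unchanged. Among the 30 detected genes 21 had higher and 9 lower values, with a median log2 change of 0.03, against 55.6% higher and a median of 0.01 over all detected probe sets. The median changed sign without dSTING RNAi dsDNA array 1, to -0.01. The change of largest size among detected genes was that of eIF2D. The 95% interval of the change lay within 0.5 on the log2 scale for 24 of the 30 and within 1, a 2-fold change, for all 30. The widest was that of eIF4G2, at -0.62 to 0.92.

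The start codon factors had small differences. eIF1 (CG17737), which guards the choice of start codon, had intensities of 1048 and 1034 in dSTING RNAi dsDNA cells, 973 and 1131 in control dsDNA cells, 1129 and 1122 in dSTING RNAi mock cells, and 1142 and 1083 in control mock cells. RNAi and control values overlapped in both treatments, with log2 changes of -0.01 (SE 0.08) in dsDNA-treated and 0.02 (SE 0.08) in mock-treated cells. eIF2beta (CG4153), a subunit of the factor that carries the initiator transfer RNA, gave 437 and 388 with RNAi and dsDNA, 427 and 424 with dsDNA alone, 420.2 and 442 with RNAi alone, and 435 and 452 in control mock cells. Its changes were -0.05 (SE 0.06) and -0.04 (SE 0.06). The helper of ribosome recycling and reinitiation eIF2D (CG31426) had 21.0 and 20.6 in dSTING RNAi dsDNA cells, 19.1 and 16.4 in control dsDNA cells, 17.3 and 21.0 in dSTING RNAi mock cells, and 20.8 and 21.8 in control mock cells. With dsDNA both RNAi values lay above both controls, by 0.22 (SE 0.11), and with mock they overlapped, at -0.15 (SE 0.11) (limma adjusted p = 1 with dsDNA).

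eIF2A (CG7414), a factor that can bring initiator transfer RNA to the ribosome without eIF2, was the only gene of the 40 with an unadjusted p under 0.05 for the knockdown in mock cells. Its intensity was 190.4 and 182 with RNAi and dsDNA, 187 and 185 with dsDNA alone, 171 and 188 with RNAi alone, and 196 and 198 in control mock cells. Both RNAi mock values lay under both control mock values, and the log2 change was -0.13 (SE 0.05) (limma adjusted p = 1). With dsDNA it was 0.00 (SE 0.05). Without the 2 arrays that stood apart the mock change was -0.12.

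The 5 subunits of eIF2B, which exchanges GDP for GTP on eIF2, had 4 higher and 1 lower value after RNAi with dsDNA, and 1 higher and 4 lower with mock. Some of these signs rested on the 2 arrays that stood apart. Without them eIF2Bbeta turned higher with dsDNA, giving 5 of 5 higher at a median of 0.20. With mock eIF2Bbeta, eIF2Bdelta and eIF2Bepsilon turned higher, giving 4 of 5 higher at a median of 0.06. eIF2Bgamma (CG8190), part of the catalytic pair with eIF2Bepsilon, had 26.9 and 24.6 in dSTING RNAi dsDNA cells, 24.0 and 24.4 in control dsDNA cells, 26.3 and 29.2 in dSTING RNAi mock cells, and 25.7 and 25.4 in control mock cells. RNAi values were above the controls without overlap in both treatments, by 0.09 (SE 0.06) with dsDNA and 0.11 (SE 0.06) with mock. Over 4 arrays a side they overlapped, and the mean change was 0.10 (SE 0.04) (limma adjusted p = 0.993). eIF2Bepsilon, which carries the exchange activity, had 0.05 with dsDNA and -0.02 with mock. The regulatory subunits eIF2Balpha, eIF2Bbeta and eIF2Bdelta had 0.11, -0.06 and 0.03 with dsDNA, and -0.09, -0.06 and -0.03 with mock. Without the 2 arrays they had 0.26, 0.20 and 0.30 with dsDNA, and -0.13, 0.05 and 0.20 with mock.

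Subunits of eIF3, the large scaffold on the small ribosomal subunit, differed little in the fit on all 8 arrays. With dsDNA 10 of the 13 detected subunit genes were higher after RNAi and 3 lower, at a median of 0.02, and with mock 4 were higher and 9 lower, at a median of -0.04. Without the 2 arrays that stood apart 12 were higher and 1 lower with dsDNA, at a median of 0.06. With mock 3 were then higher and 10 lower, at a median of -0.03. In that fit eIF3g1 had 0.17 and eIF3b -0.19 with dsDNA. The core subunit gene eIF3c (CG4954) ranged only over 82.2 to 87.1 on the 8 arrays. eIF3f1 had 57.2 to 61.8, eIF3j, a loosely bound subunit, 124 to 135 and eIF3i 197 to 216. The changes of eIF3c were 0.02 (SE 0.04) and 0.01 (SE 0.04), and its 95% interval with dsDNA ran from -0.08 to 0.11.

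eIF3h and eIF3m had the smallest p of the eIF3 genes after RNAi. eIF3h (CG9124) gave 135 and 139 with RNAi and dsDNA, 134 and 123 with dsDNA alone, 138 and 133 with RNAi alone, and 136 and 138 in control mock cells. The RNAi values were higher with dsDNA, by 0.10 (SE 0.05), and overlapped the controls with mock, at -0.02 (SE 0.05). eIF3m (CG8309) had 139.7 and 142 in dSTING RNAi dsDNA cells, 139 and 128 in control dsDNA cells, 154 and 150.2 in dSTING RNAi mock cells, and 146 and 141 in control mock cells. Its RNAi values lay above the controls within each treatment, by 0.08 (SE 0.05) and 0.08 (SE 0.05), and over both by 0.08 (SE 0.03) (limma adjusted p = 0.993), where the 4 RNAi and the 4 control arrays overlapped.

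At the cap, eIF4E1 (CG4035), the general cap-binding protein, had 181 and 171 in dSTING RNAi dsDNA cells, 171 and 183 in control dsDNA cells, 177 and 178 in dSTING RNAi mock cells, and 188 and 191 in control mock cells. RNAi values overlapped the controls with dsDNA at -0.01 (SE 0.05), and lay under them with mock, at -0.10 (SE 0.05) (limma adjusted p = 1). The helicase gene eIF4A (CG9075) had 656 and 776 with RNAi and dsDNA, 721 and 723 with dsDNA alone, 724 and 649.8 with RNAi alone, and 742 and 641 in control mock cells, with changes of -0.02 and -0.01. eIF4G1, the main scaffold, had 0.04 and 0.00. eIF4B, a cofactor of the helicase, had 0.12 and 0.06. Its other probe sets did not agree in sign: one close in brightness gave -0.09 with dsDNA and -0.05 with mock, and 2 dimmer ones gave -0.09 and -0.19 with dsDNA, and 0.07 and 0.04 with mock. Without the 2 arrays that stood apart, 4 of the 5 cap factors were lower after RNAi with dsDNA, at a median of -0.10, and 5 of 5 with mock, at a median of -0.09, eIF4B at -0.10 and -0.03. The joining factor eIF5B and eIF6, which keeps free large subunits from binding small ones, had -0.01 and 0.12 with dsDNA, and -0.15 and -0.07 with mock, where eIF5B had -0.31 without the 2 arrays.

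**Figure D2:**
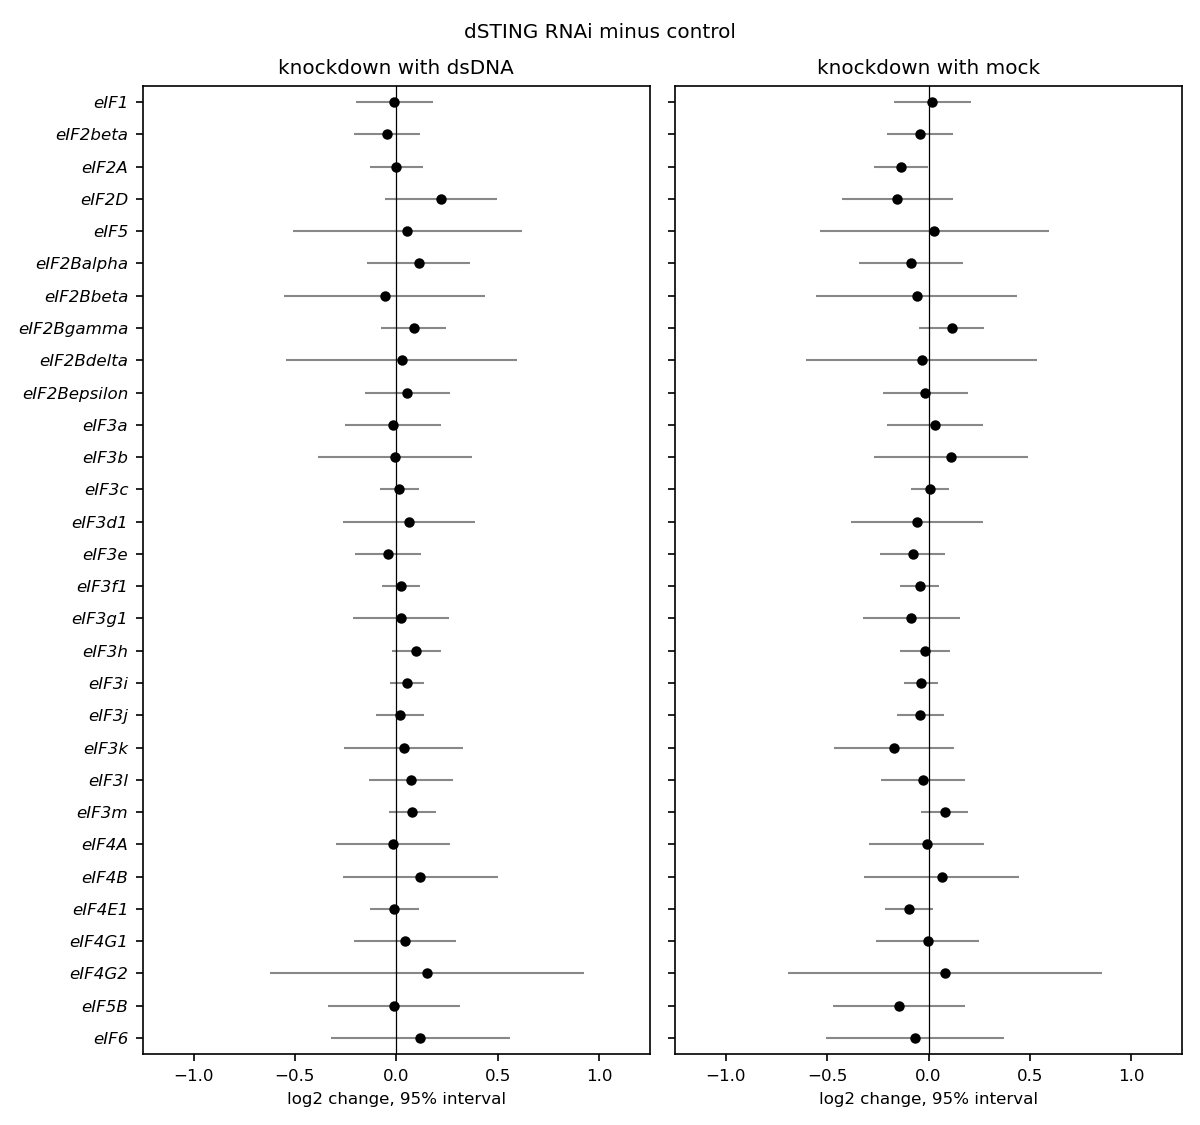
Log2 change of dSTING RNAi against control cells for the 30 detected genes, with dsDNA on the left and mock on the right (points, limma estimates; lines, 95% intervals). All 30 intervals cross 0 with dsDNA and 29 with mock, where eIF2A lies below it, and eIF4G2, eIF2Bdelta, eIF5 and eIF2Bbeta have the widest.

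In mock-treated cells the signs were mostly the other way round. Of the 30 detected genes 9 were higher and 21 lower after RNAi, at a median of -0.04, against 57.1% lower and a median of -0.02 over all detected probe sets. limma called 0 of the 40 genes and 1 (eIF2A) had an unadjusted p under 0.05, while over all probe sets 0% were called and 4.72% had such a p. RNAi and control arrays did not overlap for 2 higher and 7 lower of the 30 genes with mock, 9 in all, against 30.6% of all detected probe sets. With dsDNA 5 genes were apart, all with higher values (16.7%, against 16.2% of all detected probe sets in either direction). Both shares are close to the background in either direction. Of the 4189 detected probe sets 444 were apart and higher with dsDNA, and 236 apart and lower. The 5 initiation factor genes were eIF2D, eIF2Bgamma, eIF3h, eIF3i and eIF3m.

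Averaged over both treatments, with 4 arrays a side, dSTING RNAi gave the 30 detected genes a median change of 0.01 (18 higher, 12 lower), which was -0.01 without any one of dSTING RNAi dsDNA array 1, control dsDNA array 2 and control mock array 2. None of the 40 was called (background 0%), none had an unadjusted p under 0.05 (background 4.76%), and in none were the RNAi and control arrays apart (2.05% of all detected probe sets). The interval of the mean change lay within 0.5 for 29 of the 30, the exception being eIF4G2 at -0.43 to 0.66. The smallest p were those of eIF3m and eIF2Bgamma, given above, and eIF2A at -0.07 (SE 0.04). Sting, by the same measure, had -2.99 (SE 0.19), and at a limma adjusted p of 0.121 it was not called either.

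The dsDNA itself was set against mock next, in control cells and in knockdown cells. In control cells most initiation factor genes had lower values with dsDNA: 24 of the 30 detected genes, at a median of -0.08, where over all detected probe sets 57.7% were lower, at a median of -0.03. No gene of the 40 passed the test (background 0%), and 1 had an unadjusted p under 0.05 (background 5.25%). dsDNA and mock arrays did not overlap for 13 of the 30 (43.3%), all of them lower with dsDNA, against 33.5% of all detected probe sets in either direction. Of those 4189 probe sets 1001 were apart and lower, and 401 apart and higher. Control mock array 1 had positive deviations in 24 of the 30 genes and in 68.7% of all detected probe sets. Without that array the median of the 30 genes was -0.08. Without the 2 arrays that stood apart 26 of the 30 were lower, at a median of -0.08, and over all detected probe sets the median was -0.05.

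eIF3i (CG8882), an eIF3 subunit built of WD repeats, was the gene with the unadjusted p under 0.05 there. It had 211 and 202 in dSTING RNAi dsDNA cells, 201 and 197 in control dsDNA cells, 208 and 211 in dSTING RNAi mock cells, and 214 and 216 in control mock cells. Both control dsDNA values lay under both control mock values, at -0.11 (SE 0.03) (limma adjusted p = 0.912). eIF3m, whose values are given above, had -0.11 (SE 0.05) and eIF2D -0.25 (SE 0.11), neither past the test (adjusted p = 0.912 for both). Among roles, all 5 eIF2B genes and 11 of the 13 eIF3 genes were lower with dsDNA in control cells, at medians of -0.11 and -0.09, and 3 of the 5 detected cap factors were higher, at a median of 0.05. Without the 2 arrays that stood apart the cap factors turned, with 4 of 5 lower at a median of -0.04, while 5 of 5 eIF2B genes and 10 of 13 eIF3 genes were lower, at medians of -0.08 and -0.05.

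In knockdown cells the same treatment gave no common sign. Of the 30 detected genes 15 were higher and 15 lower with dsDNA, at a median of 0.00 (0.00 over all detected probe sets). No gene of the 40 was called (background 0%) and 1, the dim eIF4E7, had an unadjusted p under 0.05 (background 4.37%). The groups were apart for 3 of the 30 genes (10.0%, against 22.8% of all detected probe sets): eIF3a was higher, at 0.05 (SE 0.09), and eIF1 and eIF3m were lower, at -0.11 (SE 0.08) and -0.11 (SE 0.05). The median rested on single arrays, being -0.05 without dSTING RNAi dsDNA array 1 and 0.03 without array 2 of that group. eIF2Bgamma had -0.10 (SE 0.06).

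**Figure D3:**
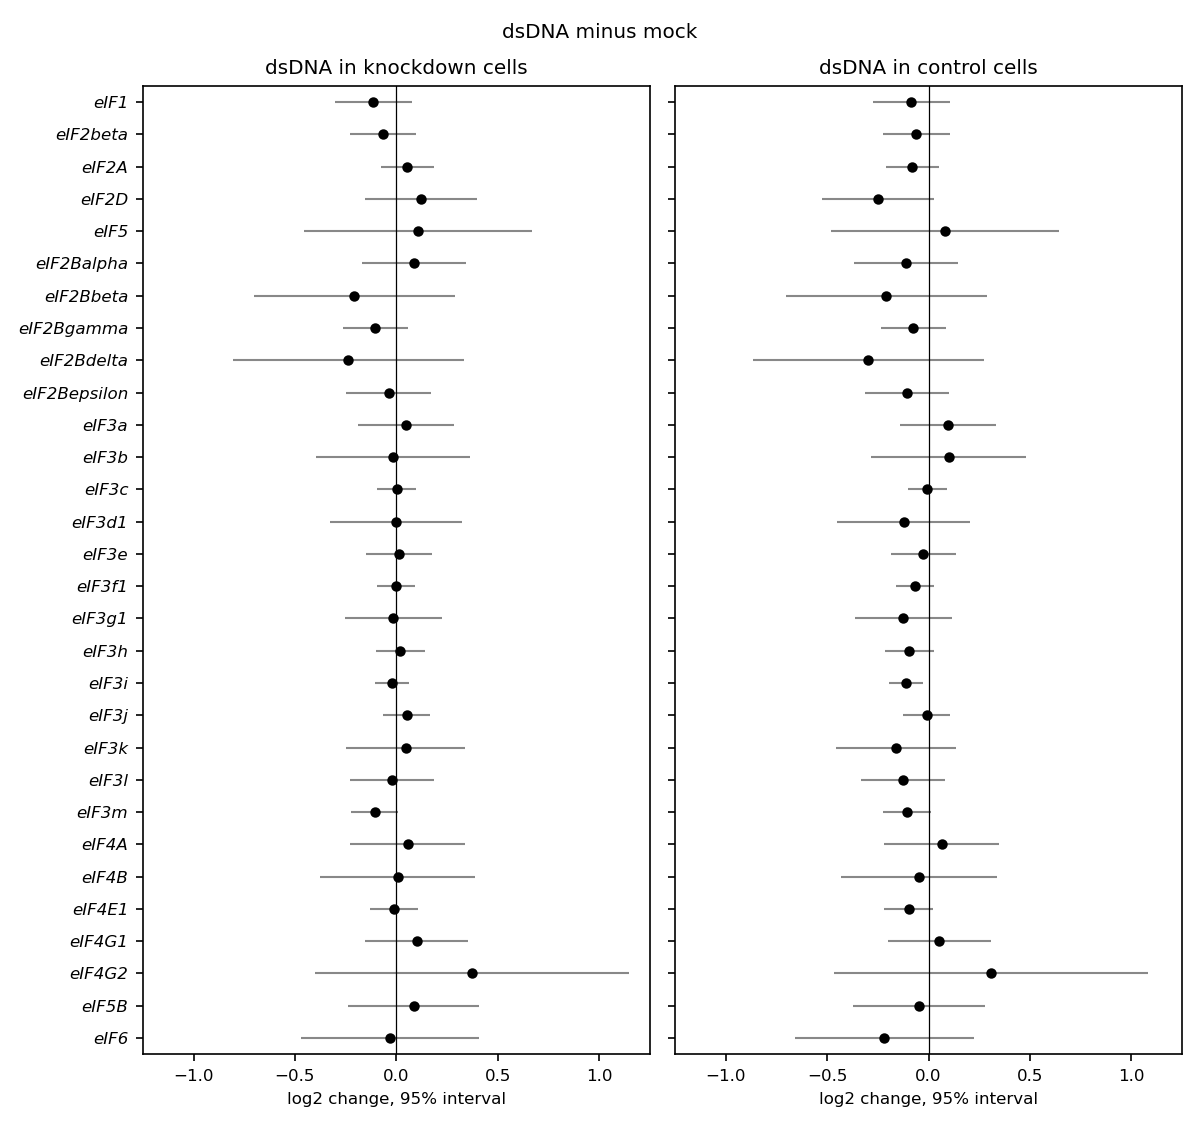
Log2 change with dsDNA against mock for the 30 detected genes, in dSTING RNAi cells on the left and in control cells on the right (points, limma estimates; lines, 95% intervals). In control cells 24 points lie left of 0 and the interval of eIF3i does not reach it, and in RNAi cells 15 lie on each side.

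The difference between those responses is the test of whether the dsDNA effect depended on dSTING. Of the 30 detected genes 23 had a positive difference (dsDNA effect in RNAi cells minus that in control cells), at a median of 0.06, against 60.2% and 0.04 over all detected probe sets. limma called 0 of the 40 genes (background 0%), and 0 had an unadjusted p under 0.05 (background 4.19%). The smallest p among detected genes were those of eIF2D at 0.37 (SE 0.15) (limma adjusted p = 1), eIF3i at 0.09 (SE 0.05) and eIF2A at 0.13 (SE 0.07). The intervals are wider here: 18 of the 30 lay within 0.5 and 29 within 1. Differences of a smaller size than these intervals were not detectable with 2 arrays a group. The intervals are not adjusted for the number of probe sets, and the adjusted test can miss larger differences, as it did for Sting above. The comparisons share arrays, and their signs are not independent.

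Averaged over RNAi and control cells, with 4 arrays a side, dsDNA gave a median change of -0.05 over the detected genes (8 higher, 22 lower), against -0.01 over all detected probe sets. No gene was called (background 0%), 3 of the 40 had an unadjusted p under 0.05, all lower with dsDNA (background 5.38%), and in 0 of the 30 detected genes were the dsDNA and mock arrays apart (background 3.06%). The 3 were eIF3m at -0.11 (SE 0.03), eIF3i at -0.07 (SE 0.02) and the dim eIF4E7, each with a limma adjusted p of 0.894. eIF2Bgamma followed at -0.09 (SE 0.04). Without control dsDNA array 2 the median of the detected genes was -0.01.

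The genes that varied most did so between arrays of the same group. eIF4G2 (CG10192), a paralogue of the scaffold gene needed for male meiosis in flies, had 18.8 and 32.9 in dSTING RNAi dsDNA cells, 21.2 and 23.5 in control dsDNA cells, 18.8 and 19.1 in dSTING RNAi mock cells, and 22.3 and 14.3 in control mock cells. The dSTING RNAi dsDNA pair differed by more than any pair of group means. Its fitted changes were 0.38 (SE 0.31) for dsDNA in knockdown cells and 0.31 (SE 0.31) in control cells, and -0.01 and 0.00 without the 2 arrays that stood apart. For the knockdown it had 0.15 with dsDNA and 0.08 with mock, and -0.24 and -0.22 without them.

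eIF5 (CG9177), the activator of GTP hydrolysis on eIF2, behaved in the same way, with 47.6 and 67.6 with RNAi and dsDNA, 53.5 and 55.6 with dsDNA alone, 51.9 and 53.1 with RNAi alone, and 61.8 and 42.8 in control mock cells. Its knockdown changes with dsDNA and with mock of 0.05 and 0.03 became -0.19 and -0.23 without those arrays. In eIF2Bdelta (CG10315) the arrays went in opposite directions to these, with 59.7 and 40.3 in dSTING RNAi dsDNA cells, 49.5 and 46.8 in control dsDNA cells, 59.7 and 56.3 in dSTING RNAi mock cells, and 50.5 and 69.8 in control mock cells. Its dsDNA change was -0.24 (SE 0.23) in knockdown and -0.30 (SE 0.23) in control cells, and 0.04 and -0.07 without them. eIF6 (CG17611) had 147 and 118 with RNAi and dsDNA, 141 and 105 with dsDNA alone, 143 and 127 with RNAi alone, and 137 and 146 in control mock cells, where control dsDNA array 2 was the lowest.

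Across the 30 detected genes dSTING RNAi dsDNA array 2 and control mock array 2 held both the highest and the lowest value of 11 (36.7%, against 28.0% of all detected probe sets). Of these, 5 were highest in the RNAi dsDNA array (eIF5, eIF3b, eIF4A, eIF4G1 and eIF4G2) and 6 were highest in the control mock array (eIF2beta, eIF2Bbeta, eIF2Bdelta, eIF3e, eIF3k and eIF4E1). At least 1 extreme of 23 genes lay in these arrays (76.7%, against 67.7%). The summed intensity of the 8 measured markers of other cells was 14.8 in that RNAi dsDNA array and 12.1 to 14.1 in the other 7, and that of the 10 blood cell markers was 418 and 411 in the 2 arrays and 374 to 462 in the rest. The part of cell makeup in these array differences was not tested.

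Leaving out both arrays changed how many of the 40 genes had an unadjusted p under 0.05, though limma called 0 of them in any comparison. That fit has 2 residual degrees of freedom, and the lone array left in the dSTING RNAi dsDNA and control mock groups is assumed to vary like the others. For the knockdown with dsDNA 6 genes had such a p, against 9.47% of all probe sets: eIF2Balpha, eIF2Bdelta, eIF3g1 and the dim eIF4EHP were higher, and eIF5 and eIF3b lower. The smallest adjusted p of a member there was 0.422. For the knockdown with mock there were 2 (background 7.62%), eIF5 and eIF5B, and on the mean knockdown 4 (background 8.90%), with eIF2Bdelta higher and eIF5, eIF4G2 and eIF5B lower. dsDNA gave 6 in knockdown cells (background 8.31%), 3 in control cells (background 7.58%) and 3 on the mean (background 8.03%). The difference between the dsDNA responses gave 3 (background 8.31%), which were eIF2Balpha, eIF3g1 and eIF4EHP, each with a positive difference.

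**Figure D4:**
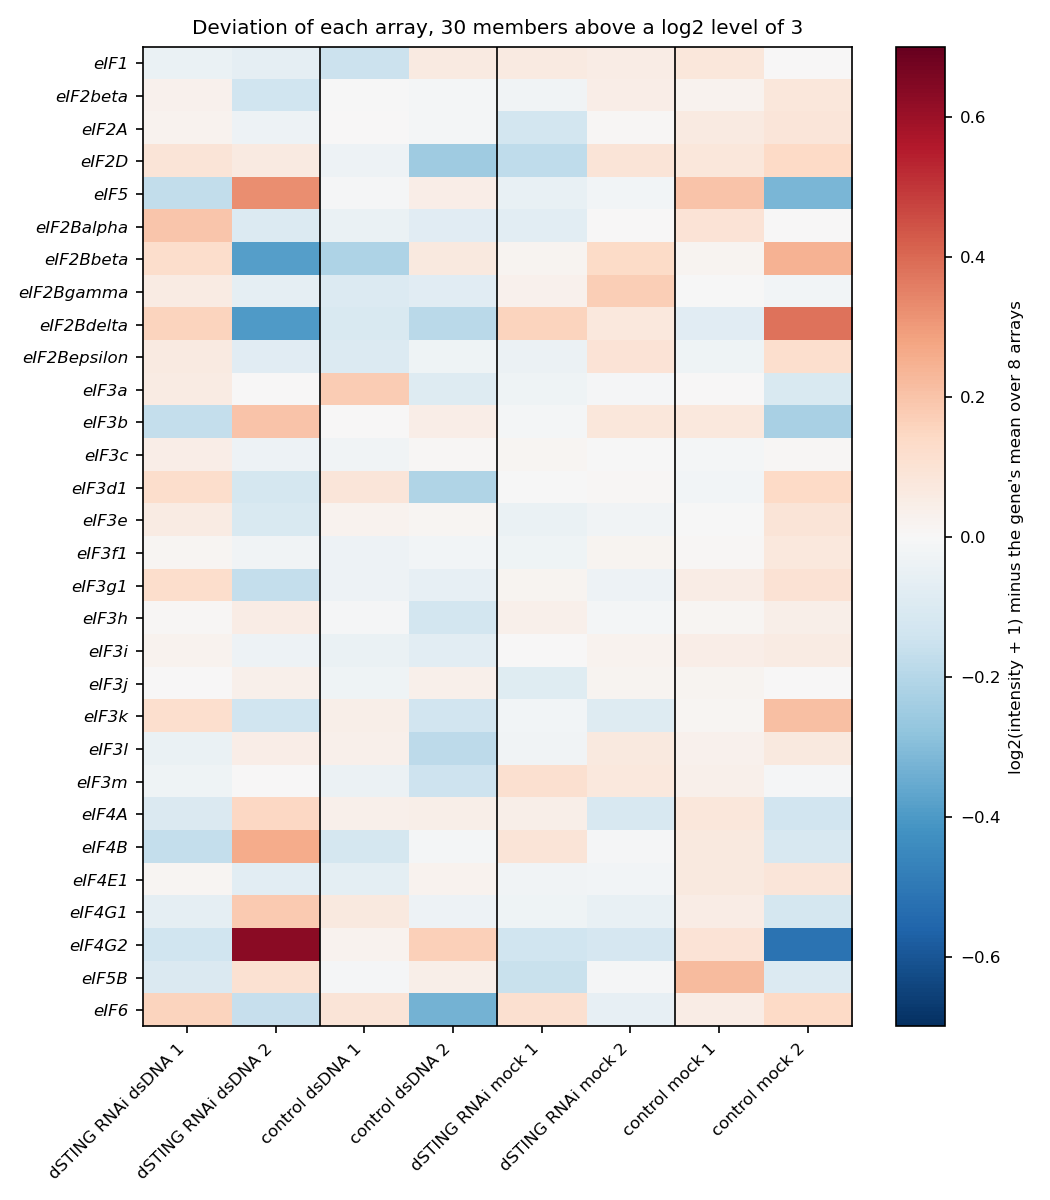
Each cell is log2(intensity + 1) on 1 array minus that gene's mean over the 8 arrays, for the 30 detected genes (rows) and the arrays by group (columns). Strong colours sit in dSTING RNAi dsDNA array 2 and control mock array 2, with opposite signs, in eIF4G2, eIF5, eIF2Bbeta and eIF2Bdelta. Another strong cell is that of eIF6 in control dsDNA array 2, which is low.

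Array by array, the median deviation of the detected genes was small. It was 0.02 and -0.04 in dSTING RNAi dsDNA cells, -0.02 and -0.03 in control dsDNA cells, -0.02 and 0.00 in dSTING RNAi mock cells, and 0.04 and 0.05 in control mock cells. Both control mock arrays were the highest of the 8. Over all detected probe sets the same medians were -0.01 and 0.01, -0.03 and 0.01, -0.01 and 0.01, and 0.04 and -0.01 in that order of groups. Control mock array 2 was thus at 0.05 for initiation factor genes and -0.01 for detected probe sets as a whole.

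**Figure D5:**
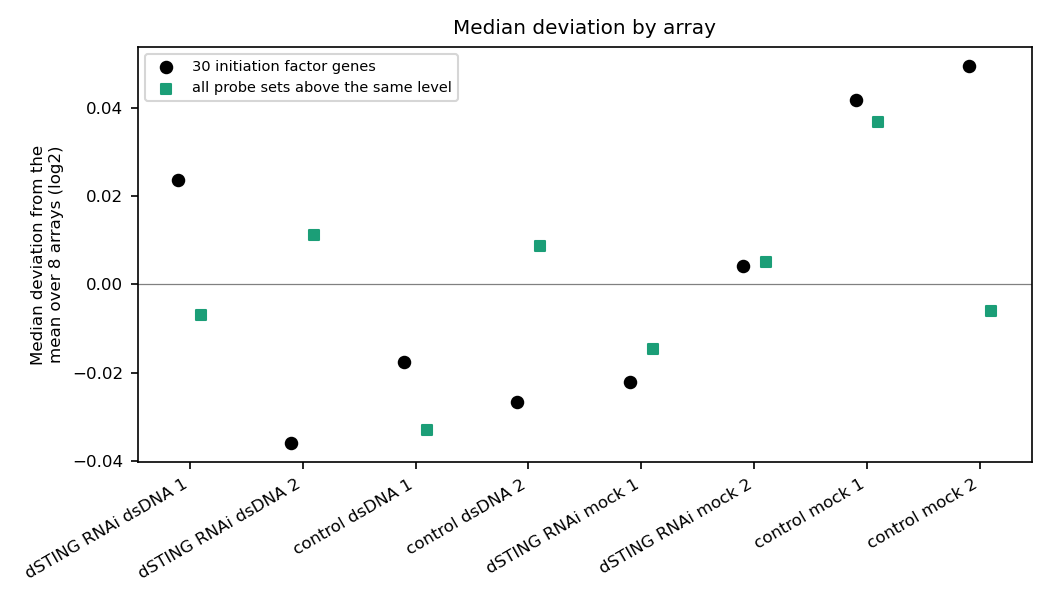
Median over genes of the log2 deviation from the 8-array mean, by array, for the 30 detected initiation factor genes (black circles) and for all 4189 detected probe sets (green squares). The black circles run from -0.04 to 0.05, with both control mock arrays at the top.

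The 10 genes that were not detected gave little to compare, since values at the floor have no order and 5 of the 10 had at least 1 value there. eIF4EHP (CG33100), which binds the cap but not eIF4G and serves as a repressor, was the brightest, with 5.19 and 4.14 in dSTING RNAi dsDNA cells, 3.90 and 4.05 in control dsDNA cells, 3.80 and 4.07 in dSTING RNAi mock cells, and 4.43 and 4.28 in control mock cells. RNAi values were above the controls with dsDNA, at 0.18 (SE 0.09), and under them with mock, at -0.12 (SE 0.09), and the difference between the dsDNA responses was 0.30 (SE 0.13) (limma adjusted p = 1). Its second probe set gave 0.07 with dsDNA and 0.06 with mock for the knockdown, and 0.00 for the difference between responses. eIF4E7 was at 1 in all 4 dsDNA arrays, against 1.16 and 1.33 in dSTING RNAi mock cells and 1.23 and 1.12 in control mock cells. Its log2 change with dsDNA was -0.14 (SE 0.03) on the mean (limma adjusted p = 0.894), a difference between the floor and values just above it.

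The remaining dim genes were at most 1.51 on every array. The eIF3 paralogues eIF3g2 and eIF3d2 had the next smallest p, eIF3g2 with -0.10 (SE 0.07) for the knockdown with dsDNA, -0.15 (SE 0.07) for dsDNA in knockdown cells and -0.19 (SE 0.09) for the difference between responses, and eIF3d2 with 0.06 (SE 0.04) for the knockdown with mock and -0.03 (SE 0.03) for the mean dsDNA effect. eIF4E4 had 0.06 (SE 0.05) for the knockdown with mock and 0.07 (SE 0.05) for dsDNA in control cells. On the mean knockdown effect eIF4E3 had -0.04 (SE 0.03) and eIF4H2 0.05 (SE 0.05). None passed the test.

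Genes that act with or on the initiation factors were read from a list of 33 names. Of these 21 matched a gene symbol, as updated through RefSeq, and 17 were detected. The unmatched names include older names of genes given here, such as Perk for PEK and CG17737 for eIF1. Thor, Tor, Rheb, cup and pix also found no match, so the values below do not cover them. In every comparison 0 of the 21 were called (background 0%). Medians of the 17 were 0.04 and -0.02 for the knockdown with dsDNA and with mock. For dsDNA in knockdown and in control cells they were 0.03 and -0.04. In the same order, medians over all detected probe sets were 0.01 and -0.02, and 0.00 and -0.03. Gcn2, a kinase of eIF2, had 15.5 and 19.7 in dSTING RNAi dsDNA cells, 15.7 and 15.4 in control dsDNA cells, 15.7 and 15.4 in dSTING RNAi mock cells, and 11.8 and 13.5 in control mock cells. Its lowest values were those of the control mock pair. The mean knockdown change was 0.22 (SE 0.08) and the mean dsDNA change 0.22 (SE 0.08) (limma adjusted p = 0.993 and 0.894). PEK, the other eIF2 kinase of flies, had 0.12 (SE 0.08) and -0.02 (SE 0.08), and PPP1R15, which directs the phosphatase that reverses those kinases, had 0.04 (SE 0.04) and -0.09 (SE 0.04).

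crc, the fly ATF4, whose translation rises when eIF2 is phosphorylated, had 412 and 364 with RNAi and dsDNA, 371 and 416 with dsDNA alone, 427 and 417 with RNAi alone, and 429 and 449.8 in control mock cells. The 4 dsDNA arrays lay under the 4 mock arrays, with a mean change of -0.14 (SE 0.06) (limma adjusted p = 0.894). dsDNA and mock arrays were apart, in either direction, for 3.06% of all detected probe sets. pAbp, which binds the poly(A) tail and eIF4G, had 0.20 (SE 0.08) on the mean dsDNA effect and 0.06 (SE 0.08) on the mean knockdown effect. The eIF4G relative NAT1 had 0.18 (SE 0.13) and 0.13 (SE 0.13), and Lk6, a kinase of eIF4E, -0.13 (SE 0.10) and -0.08 (SE 0.10). Lk6 was lowest in dSTING RNAi dsDNA array 2 (134) and highest in control mock array 2 (185), the arrays that stood apart. Both pAbp (726) and NAT1 (220) were highest in that RNAi dsDNA array. Changes of the partner genes without those arrays are not given here. Rack1, a protein of the small ribosomal subunit, had -0.03 (SE 0.04) and 0.01 (SE 0.04). The TORC1 gene raptor, with an unadjusted p under 0.05 in 4 comparisons, lay near the floor at 1 to 1.40.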

How the data were processed

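Per the labels' protocols, biotin label was put into total RNA with an Affymetrix IVT kit that primes at the 3' end. The deposited table holds linear intensity values, 1 for each probe set on each array. How the authors summarised and normalised them is not given in the sources used here. No value is under 1. After removal of 183 control probe sets, log2(intensity + 1) of 18769 probe sets was fitted with a mean per group over all 8 arrays (limma 3.58.1, R 4.3.3: lmFit, contrasts.fit, eBayes). There were 4 residual degrees of freedom, 5.32 with the prior. All 7 contrasts were two-sided, with Benjamini-Hochberg adjustment over all probe sets. A run on simulated data with independent noise checked the estimated changes and the rate of small p in unchanged probe sets. It did not check whether changes are called, and it held no arrays that stand apart. Intervals are 95% intervals of that fit. Nothing states that arrays within a group stem from separate cultures. The spread behind each p-value may therefore be technical, and precision is limited by the number of arrays. The labels do not say that replicate numbers mark a shared batch.

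Members, lists and most alternatives were chosen with earlier results of these data known. Named were, by rule, Sting, the detected members by role, and for each contrast the 3 detected and 2 other members with the smallest unadjusted p. Other genes and values were picked after they were seen. Of the members' probe sets 5 end in _s_at (eIF5, eIF2Bdelta, eIF3b, eIF4A and eIF4E1), a suffix for probes that can match several transcripts. No sequences are shown, since the files used here hold none.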

Additional observations from a re-analysis of the deposited data

How the results depend on the processing

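In 20 alternative settings, which were quantile normalization, median centring, 2 filters on low values, a pseudocount of 16, eBayes with trend and robust options, the replicate block, only the arrays compared, the 2 arrays that stood apart left out, each array left out in turn, and 3 other choices of probe sets, limma called 0 initiation factor genes in all 137 counts obtained. The fit on only the arrays compared was not run for the difference between responses and the 2 mean effects. The members found through updated symbols were the same 40. The 35 changes followed here were those of the 3 detected and 2 other members with the smallest unadjusted p per contrast. They kept their sign and stayed short of the threshold in all 594 values obtained. That choice favours stable signs, and other changes given above did change sign, such as those of eIF5 and eIF4G2 for the knockdown. Calls among all probe sets moved above 0 in some settings: with either filter 3 for the knockdown with dsDNA, 3 with mock and 4 on the mean, and on the mean knockdown also 2 with median centring, 1 with a pseudocount of 16 and 3 with trend and robust options. None of them was an initiation factor gene. Under the filter on detected probe sets the smallest unadjusted limma p of a member was 0.0648 (eIF2D, difference between responses). Deviations of equally numbered arrays correlated between -0.737 and 0.384 over the detected probe sets. The lowest value was that of dSTING RNAi dsDNA with control mock, the groups of the 2 arrays that stood apart. These correlations therefore cannot decide whether replicate numbers pair the arrays. With the replicate block the counts were 0 as well, and the median change of the detected members was 0.03 for the knockdown with dsDNA. Medians of the detected members ranged over the settings run from -0.01 to 0.05 for the knockdown with dsDNA, -0.05 to -0.01 with mock, -0.09 to -0.06 for dsDNA in control cells, -0.05 to 0.03 in knockdown cells, 0.03 to 0.09 for the difference between responses, -0.01 to 0.02 for the mean knockdown and -0.06 to -0.01 for the mean dsDNA effect. Near the floor a small change cannot be resolved, which limits the 10 dim genes.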

Other observations

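Elongation and termination factors, the next steps of translation, were 7 genes matched by symbol of 11 names listed, with 5 detected (eEF1gamma, eEF1delta, eRF1, eRF3 and eEF5). Their median log2 change was -0.03 for the knockdown with dsDNA and 0.00 with mock. For dsDNA in knockdown and in control cells it was 0.01 and -0.01. In the same order, medians over all detected probe sets were 0.01 and -0.02, and 0.00 and -0.03. limma called none of the 7 (background 0%). eEF5, the fly gene for the hypusine-bearing factor once named eIF5A, had intensities of 1533 and 1656 in dSTING RNAi dsDNA cells, 1623 and 1677 in control dsDNA cells, 1575 and 1588 in dSTING RNAi mock cells, and 1653 and 1498 in control mock cells. Of the 2 dim genes eEFSec, the elongation factor for selenocysteine, had 1.80 and 1.44 with RNAi and dsDNA, 2.14 and 2.05 with dsDNA alone, 1.57 and 1.59 with RNAi alone, and 2.18 and 2.15 in control mock cells. The 4 RNAi arrays of eEFSec lay under the 4 controls, with a mean change of -0.27 (SE 0.05) (limma adjusted p = 0.800), close to the floor of 1. RNAi and control arrays were apart in this way, in either direction, for 2.31% of all probe sets.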
